A study of Mus musculus with 4 samples.

Results

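The 9 genes Myc, Mycn, Max, Mxd1, Mxd3, Mxd4, Mxi1, Mnt and Mlx, which encode the core of the MYC, MAX and MXD transcription factor network, were taken by symbol from a table of 39179 mouse gene identifiers. All 9 were present, each with 1 identifier, and all 9 passed the filter on low counts. The RNA came from cardiac progenitor cells grown from mouse embryonic stem cells with an inducible Gata6 gene. One group of 2 libraries came from cells given cucurbitacin I hydrate at 10 µM for 2 days, and the other group of 2 came from cells given the solvent DMSO (0.1% of the medium) for the same time. Cucurbitacin I, a screening hit, is a triterpenoid of plants that inhibits the JAK2 and STAT3 pathway. Both groups share the inducible Gata6 allele, and the labels name 1 parent line. The compound was added on day 6, and the labels conflict on the harvest, which is day 8 in the titles and day 10 in the extraction protocol. Separate cultures are not named for the libraries of a group, and the p-values therefore measure a spread between libraries that may be technical.

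MYC proteins bind DNA as dimers with MAX at the E-box CACGTG and switch on genes of ribosome production, metabolism and cell growth. The MXD proteins, MXI1 and MNT compete for MAX and bring SIN3 corepressors to the same sites, so the network is often described as a balance of activating and repressing partners. MLX is a second dimer partner, which joins MLXIP and MLXIPL in a sugar-sensing branch and also binds MXD1, MXD4 and MNT. In the mouse embryo MYCN is needed for growth of the heart wall, and MYC is known in the adult heart for its part in hypertrophic growth.

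Promoter sequences from RefSeq (GRCm38.p6, the assembly of mm10) were available for 8 of the 9 members, all but Myc. Each window ran from 250 bases before to 50 bases after a start, and both strands were searched for the E-box CACGTG, its variant CACGCG, the STAT-type sequence TTCNNNGAA and the E2F-type sequences TTTGGCGC and TTTCCCGC. CACGTG was present for 4 of the 8 members, Max, Mlx, Mnt and Mxd4, whereas 8.09% of the 27025 genes with a promoter and 7.15% of all 32851 windows held it. The 4 stretches of 30 bases are shown because the E-box is the sequence that the proteins of the network themselves bind, and the capitals mark it.
Mlx, chr11:101087238-101087267, plus strand: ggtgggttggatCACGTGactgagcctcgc
Max, chr12:76962234-76962263, minus strand: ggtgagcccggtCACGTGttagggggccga
Mnt, chr11:74830789-74830818, plus strand: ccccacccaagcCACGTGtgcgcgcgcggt
Mxd4, chr5:34187912-34187941, minus strand: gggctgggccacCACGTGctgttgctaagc

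The E-box began 3 bases before the start for Max, 40 for Mlx, 123 for Mnt and 219 for Mxd4. CACGCG and TTCNNNGAA were present for 0 of the 8 members, against 10.5% and 9.55% of the genes with a promoter (9.27% and 8.30% of all windows). Mycn held TTTGGCGC at 183 and 168 bases before its start, and 1.80% of the genes with a promoter (1.57% of all windows) held either E2F-type sequence. Mycn and Mxd3 were both lower in cucurbitacin I. For each, the stretch before the first annotated exon base of any gene in the window is shown, with E2F-type matches in capitals. A match is a run of letters, and a window without one says nothing of the factor.
Mycn, chr12:12941915-12942086, minus strand: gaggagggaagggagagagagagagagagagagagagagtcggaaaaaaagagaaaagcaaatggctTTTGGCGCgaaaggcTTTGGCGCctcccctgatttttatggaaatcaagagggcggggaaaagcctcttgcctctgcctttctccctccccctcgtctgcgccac
Mxd3, chr13:55329824-55329981, minus strand: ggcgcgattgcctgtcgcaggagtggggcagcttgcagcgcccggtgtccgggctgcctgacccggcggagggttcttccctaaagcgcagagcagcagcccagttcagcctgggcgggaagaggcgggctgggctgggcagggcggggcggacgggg

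Libraries held 23759431 to 26773886 counts in cucurbitacin I and 25573785 to 27069312 in DMSO. Counts were compared with edgeR's quasi-likelihood test over 16722 genes, and a gene was called at a Benjamini-Hochberg adjusted p below 0.05. Of all genes tested, 2318 were higher and 3259 lower in cucurbitacin I, so 33.4% were called in either direction. With library totals alone as the scaling, 1059 were higher and 4767 lower, and the median log2 fold change then moved to -0.24, in place of -0.01. Fold changes of the members are given on the TMM scaling unless library totals are named. With DMSO replicate 1 left out the calls were 389 higher and 1461 lower, and with DMSO replicate 2 left out they were 1071 and 2063. The smallest p of an exact permutation test with 2 libraries a group is 0.33, and each call therefore depends on the variance that edgeR pools over genes. All 8 cardiac markers were detected in both groups, and 3 of the 8 were called higher, against 13.9% of all genes. Their summed levels were 10776 and 13063 CPM (counts relative to a library's TMM-scaled total) in cucurbitacin I, against 5541 and 6463 CPM in DMSO.

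Of the 9 members, 3 were lower (Myc, Mycn and Mxd3), 1 was higher (Mlx) and 5 were not past the threshold. This is read against 19.5% of all genes lower and 13.9% higher. The CPM of the groups did not overlap for 6 members, and this was so for 73% of all genes tested. The median log2 fold change of the 9 members was -0.16, against -0.01 over all genes.

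**Figure D1:**
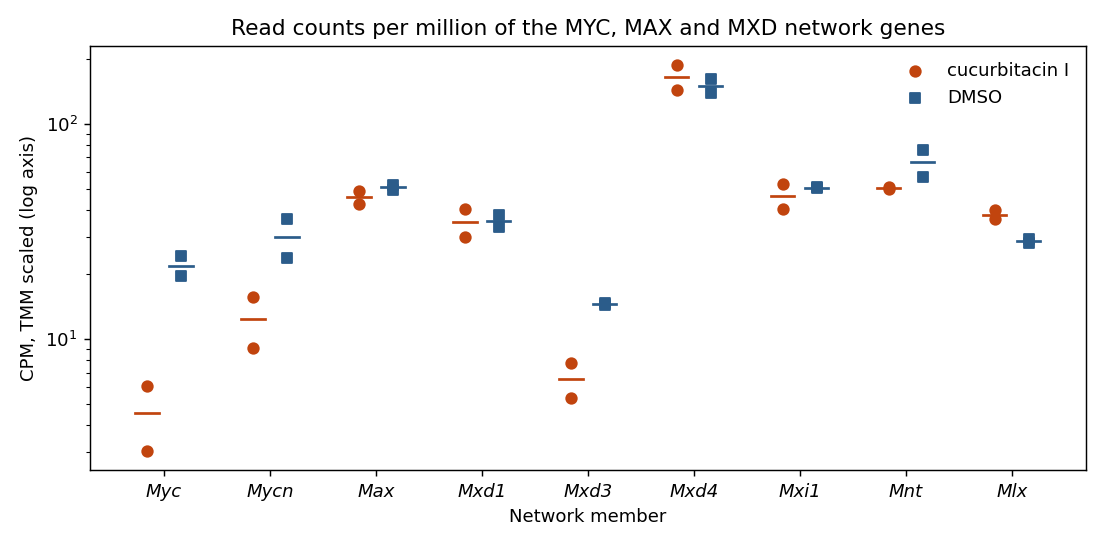
TMM-scaled CPM (log axis) of each network member in the 2 cucurbitacin I libraries (circles, left of each pair) and the 2 DMSO libraries (squares, right); short lines are group means. Myc, Mycn and Mxd3 lie lower in cucurbitacin I without overlap, Mlx lies higher, and Mxd1, Mxd4 and Mxi1 overlap.

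Myc, which encodes the growth-promoting factor c-MYC (ENSMUSG00000022346, chr15:61985391-61990374 on mm10, plus strand), had 148 and 67 counts in the cucurbitacin I libraries, against 729 and 533 in the DMSO libraries. After scaling this was 6.06 and 3.03 CPM in cucurbitacin I, against 24.4 and 19.6 CPM in DMSO. Both cucurbitacin I libraries were below both DMSO libraries. The means were 4.55 ± 2.15 CPM in cucurbitacin I and 21.99 ± 3.35 CPM in DMSO (SD, n = 2 each), and edgeR gave a 4.82-fold lower level in cucurbitacin I (log2 fold change -2.27, SE 0.34, 95% interval -3.12 to -1.42, adjusted p = 0.00849). Myc was the only member called at an adjusted p below 0.01 and the only one called against a 1.5-fold change. In these bulk samples, fewer cells of a type and less RNA per cell cannot be told apart.

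Mycn, the MYC gene known for embryonic growth (ENSMUSG00000037169, chr12:12936096-12941914, minus strand), had 382 and 202 counts in cucurbitacin I, against 1079 and 649 in DMSO. Its levels were 15.7 and 9.13 CPM in cucurbitacin I, against 36.0 and 23.9 CPM in DMSO. The groups did not overlap, but the libraries within each group were further apart than for most members, at 12.4 ± 4.62 CPM in cucurbitacin I and 30.0 ± 8.60 CPM in DMSO (SD, n = 2 each). The level in cucurbitacin I was 2.42-fold lower (log2 fold change -1.27, SE 0.32, edgeR adjusted p = 0.0312). The call of Mycn was lost when DMSO replicate 1 was left out (log2 fold change -0.94, adjusted p = 0.144). Whether Myc and Mycn fell by different amounts was not tested.

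Many markers of dividing cells and of other cell types were called lower in the same libraries, where 19.5% of all genes were lower. All 6 markers of dividing cells were lower, with summed levels of 211 and 252 CPM in cucurbitacin I, against 738 and 713 CPM in DMSO. All 8 endoderm markers were lower, with sums of 4.51 and 6.10 CPM in cucurbitacin I, against 514 and 811 CPM in DMSO. These markers thus moved in the same direction as Myc and Mycn. Blood and myeloid markers (6 of 8 lower, Tyrobp at 0 in both cucurbitacin I libraries) summed to 26.3 and 49.0 CPM in cucurbitacin I, against 323 and 401 CPM in DMSO. The embryonic globins Hba-x (179 and 231 CPM) and Hbb-bh1 (114 and 141 CPM) made up most of the DMSO sum. The myeloid markers Csf1r and Cd68 were not past the threshold (log2 fold change -0.14 and -0.48, edgeR adjusted p = 0.45 and 0.324). Csf1r shares exon bases with Hmgxb3 on the opposite strand. Endothelial markers (4 of 6 lower, Emcn at 0 in both cucurbitacin I libraries) summed to 21.6 and 28.9 CPM in cucurbitacin I, against 120 and 149 CPM in DMSO. Of 6 pluripotency markers 2 were tested and 1, Sox2, was lower, while Esrrb was not past the threshold (-0.53, edgeR adjusted p = 0.239). Others had too few counts to be tested. Dppa5a had 0 and 0 counts in cucurbitacin I, against 4 and 3 in DMSO. Pou5f1 had 0 and 3 counts, against 4 and 8. Nanog had 6 and 9, against 5 and 6. The pluripotency list summed to 5.37 and 5.96 CPM in cucurbitacin I, against 39.8 and 21.02 CPM in DMSO. Of 6 neural markers 4 were tested, 3 were lower and 1 was not past the threshold (log2 fold change 0.68). Neurog1 and Sox1 were at 0 in both cucurbitacin I libraries, but were near 0 in DMSO too. Neurog1 had 1 and 0 counts there, and Sox1 had 9 counts over both DMSO libraries. The neural sums overlapped between groups at 31.8 and 16.2 CPM in cucurbitacin I, against 26.5 and 25.1 CPM in DMSO. The part of these cells in the fall of Myc, Mycn and Mxd3 was not tested.

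Max, the partner that MYC and MXD proteins share (ENSMUSG00000059436, chr12:76937269-76962248, minus strand), had 49.0 and 42.4 CPM in cucurbitacin I, against 52.3 and 49.5 CPM in DMSO. The groups lay close together without overlap, and Max was not past the threshold (log2 fold change -0.16, 95% interval -0.43 to 0.12, edgeR adjusted p = 0.325). It was called lower with library totals alone (-0.39, adjusted p = 0.0474).

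Among the antagonists, Mxd3 stood apart. Mxd3, an MXD gene known to be expressed in dividing cells (ENSMUSG00000021485, chr13:55325168-55329758, minus strand), had 130 and 171 counts in cucurbitacin I, against 430 and 400 in DMSO. Its levels were 5.33 and 7.73 CPM in cucurbitacin I, against 14.4 and 14.7 CPM in DMSO. The groups did not overlap, and the level in cucurbitacin I was 2.23-fold lower (log2 fold change -1.16, SE 0.22, edgeR adjusted p = 0.0157). Mxd3 lost its call when DMSO replicate 1 was left out (adjusted p = 0.072) or without DMSO replicate 2 (0.0604), with log2 fold changes of -1.17 and -1.14. It shares 105 exon bases with Prelid1 on the opposite strand, no source used here says whether counting used the strand, and Prelid1 had 109 and 99.8 CPM in cucurbitacin I, against 124 and 106 CPM in DMSO (log2 fold change -0.13, adjusted p = 0.41).

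The other 4 antagonists were not past the threshold. Mxd1, a gene known to rise as cells differentiate (ENSMUSG00000001156, chr6:86647044-86669159), had 29.8 and 40.1 CPM in cucurbitacin I, against 33.2 and 37.9 CPM in DMSO. Mxd4 (ENSMUSG00000037235, chr5:34173887-34187720), which encodes a further SIN3-recruiting MAX partner, had 143 and 187 CPM in cucurbitacin I, against 139 and 161 CPM in DMSO. Mxi1 (ENSMUSG00000025025, chr19:53310506-53375810), whose protein also binds MAX and SIN3, had 40.4 and 52.5 CPM in cucurbitacin I, against 50.3 and 50.9 CPM in DMSO. For these 3 genes the groups overlapped. Mxi1 shares 194 exon bases with Gm10197 on the opposite strand, which had 7.29 and 7.95 CPM in cucurbitacin I, against 8.08 and 8.32 CPM in DMSO. Mxd4 shares 514 exon bases with Gm42846 on the opposite strand, for which no counts were available. The log2 fold change was -0.03 for Mxd1 (95% interval -0.45 to 0.40), 0.14 for Mxd4 (-0.26 to 0.54) and -0.12 for Mxi1 (-0.48 to 0.23), with edgeR adjusted p of 0.92, 0.535 and 0.537, and each sign turned when 1 library was left out, that of Mxd4 also with library totals alone (-0.091). Mnt, the broadly expressed antagonist (ENSMUSG00000000282, chr11:74830920-74845725), had 49.7 and 51.0 CPM in cucurbitacin I, against 75.9 and 56.6 CPM in DMSO. Its groups did not overlap, with DMSO replicate 1 highest, and its log2 fold change was -0.40 (95% interval -0.78 to -0.01, adjusted p = 0.102). Without DMSO replicate 1 it was -0.17 (adjusted p = 0.444), without DMSO replicate 2 it was called (-0.59, 0.0402), and with library totals alone it was called as well (-0.64, 0.0331).

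Mlx, the partner of the sugar-sensing branch (ENSMUSG00000017801, chr11:101087277-101092207, plus strand), was the only member called higher. It had 969 and 800 counts in cucurbitacin I, against 841 and 797 in DMSO, which after scaling was 39.7 and 36.1 CPM in cucurbitacin I, against 28.1 and 29.3 CPM in DMSO. The scaled groups did not overlap, and the level in cucurbitacin I was 1.32-fold higher (log2 fold change 0.40, SE 0.11, 95% interval 0.13 to 0.67, edgeR adjusted p = 0.0389). The call was lost with library totals alone (0.17, adjusted p = 0.301), with DESeq2 (0.40, 0.0606), and without cucurbitacin I replicate 1 (0.127), DMSO replicate 1 (0.189) or DMSO replicate 2 (0.122). In the authors' deposited table Mlx had a log2 fold change of 0.40 and an adjusted p of 0.00248. Mlx shares 385 exon bases with Psmc3ip on the opposite strand, which had 11.6 and 11.4 CPM in cucurbitacin I, against 16.5 and 15.6 CPM in DMSO.

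**Figure D2:**
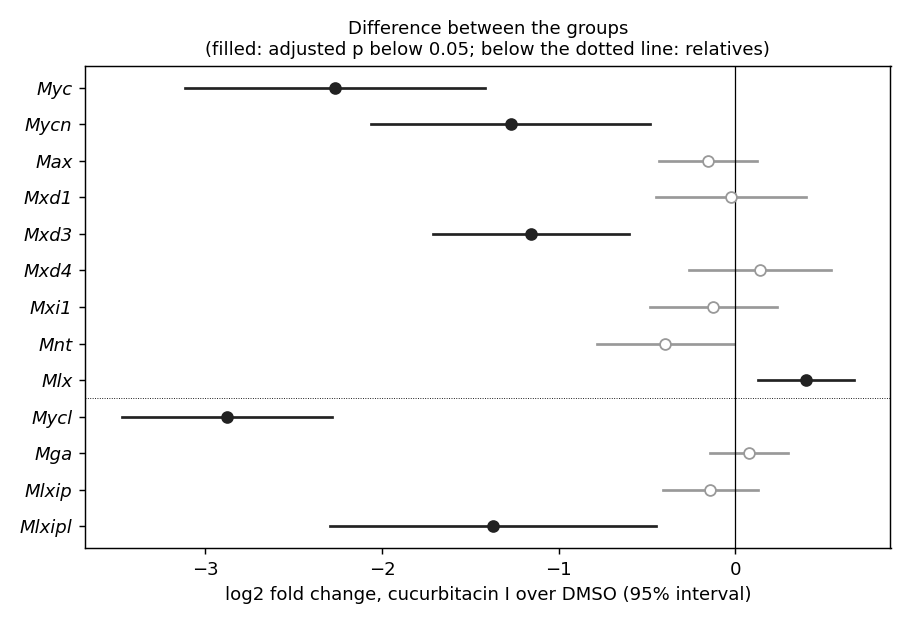
log2 fold change of cucurbitacin I over DMSO with its 95% interval for the 9 members and, below the dotted line, 4 relatives; filled points have an adjusted p below 0.05. Myc (-2.27), Mycn (-1.27), Mxd3 (-1.16), Mycl (-2.88) and Mlxipl (-1.37) lie below 0, Mlx (0.40) lies above it, and the open points have intervals that reach or come close to 0.

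Levels of different genes were compared as CPM per kilobase of annotated exon. Averaged over the 4 libraries, the order from high to low was Mxd4 (18.6 CPM per kb), Mlx (16.7), Max (13.4), Mnt (12.6), Mxi1 (7.11), Mycn (6.43), Mxd1 (4.98), Myc (4.88) and Mxd3 (4.45). Only between Mnt and Mxi1 did the ranges of neighbours in this order stay apart over the 4 libraries. In cucurbitacin I Mycn ranked 7 and Myc 9, the lowest of the members, whereas in DMSO Mycn ranked 5 and Myc 6.

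The ratio of antagonist transcripts to those of Myc and Mycn was higher in both cucurbitacin I libraries than in either DMSO library. Mycl was not in the sum, at 0.710 and 0.683 CPM per kb in cucurbitacin I, against 6.03 and 4.22 CPM per kb in DMSO. Summed per exon length, Myc and Mycn had 6.98 and 3.88 CPM per kb in cucurbitacin I, against 19.9 and 14.5 CPM per kb in DMSO. The 5 antagonists Mxd1, Mxd3, Mxd4, Mxi1 and Mnt together had 40.0 and 49.7 CPM per kb in cucurbitacin I, against 50.9 and 50.3 CPM per kb in DMSO. The ratio of antagonists to MYC genes was 5.73 and 12.8 in cucurbitacin I, against 2.56 and 3.47 in DMSO, and it differed more between the cucurbitacin I libraries than between the DMSO libraries. Max over the sum of Myc and Mycn was 1.95 and 3.04 in cucurbitacin I, against 0.73 and 0.952 in DMSO. Myc made up 32.0% and 28.7% of the Myc and Mycn sum in cucurbitacin I, against 45.0% and 49.9% in DMSO. Within the antagonists, Mxd3 made up 5.62% and 6.56% in cucurbitacin I, against 11.9% and 12.4% in DMSO. These ratios are a description of 4 libraries and carry no test. The ratios over Myc and Mycn divide by 2 members already called lower, so they restate those calls. The antagonist sum itself was not higher in cucurbitacin I.

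**Figure D3:**
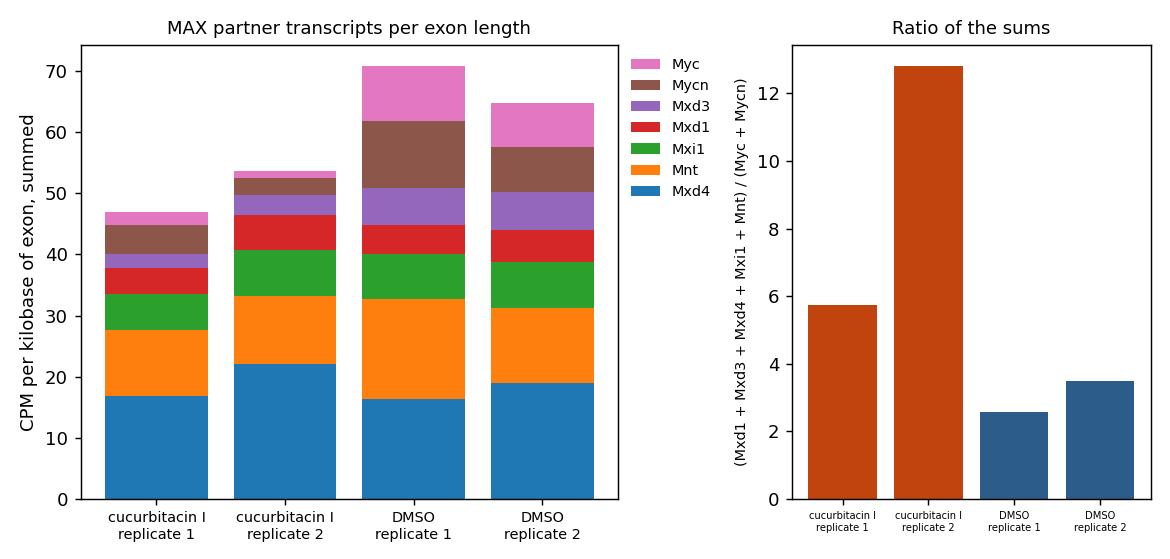
Left: CPM per kilobase of exon of the 5 antagonists, Mycn and Myc, stacked for each library (cucurbitacin I left, DMSO right). Right: ratio of the antagonist sum to the sum of Myc and Mycn, at 5.73 and 12.8 in cucurbitacin I, against 2.56 and 3.47 in DMSO.

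Of 4 relatives of the network, 2 were lower and 2 were not past the threshold, against 19.5% of all genes lower and 13.9% higher. Mycl, the third MYC gene of mammals (ENSMUSG00000028654, chr4:122995652-123002485), had 70 and 61 counts in cucurbitacin I, against 729 and 463 in DMSO, or 2.87 and 2.76 CPM in cucurbitacin I, against 24.4 and 17.0 CPM in DMSO. The groups were far apart, with a 7.35-fold lower level in cucurbitacin I (log2 fold change -2.88, SE 0.24, edgeR adjusted p = 0.00254). Mlxipl, which encodes the MLX partner ChREBP, had 9 and 10 counts in cucurbitacin I, against 35 and 26 in DMSO. Its log2 fold change was -1.37 (edgeR adjusted p = 0.039). Mlxipl did not pass with DESeq2 as run here (0.173) or without any 1 of the 4 libraries (log2 fold changes -1.51 to -1.21). The authors' deposited values for Mlxipl were a log2 fold change of -1.19 and an adjusted p of 0.0184. Mga, whose protein pairs with MAX in a repressor complex, had 123 and 118 CPM in cucurbitacin I, against 115 and 113 CPM in DMSO (log2 fold change 0.08, adjusted p = 0.517, and -0.16 with library totals alone). Mlxip, which encodes the MLX partner MondoA, had 70.4 and 61.4 CPM in cucurbitacin I, against 75.1 and 70.3 CPM in DMSO (-0.14, adjusted p = 0.354). Mlxip was called lower with library totals alone (-0.38, adjusted p = 0.0485). Pvt1, a long noncoding RNA gene beside Myc, had 10 and 8 counts in cucurbitacin I, against 18 and 13 in DMSO, a difference that did not pass at this depth (-0.48, 95% interval -1.49 to 0.53, adjusted p = 0.399).

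Over the 4 libraries, the genes with the profile most like that of Myc were Megf10, Atp2a3 and Pmp22, with a root mean square difference of centred log2 CPM of 0.049, 0.19 and 0.20. Megf10, which encodes an engulfment receptor of the cell surface, had 6.52 and 3.34 CPM in cucurbitacin I, against 25.2 and 19.8 CPM in DMSO. Those most like Mycn were Kdelr3 (0.028), Prdm16 (0.074) and Lpar2 (0.077). Kdelr3, an endoplasmic reticulum retention receptor gene, had 11.5 and 6.96 CPM in cucurbitacin I, against 26.6 and 18.3 CPM in DMSO. All 6 were called lower, which follows from how they were chosen.

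Most listed MYC targets were not past the threshold, and those that were called were mostly lower. Of 30 nucleolar and ribosome-production targets, 7 were lower, 0 were higher and 23 were not past the threshold, with a median log2 fold change of -0.27 against -0.01 over all genes. At an unadjusted p below 0.05, 11 were lower and 1 was higher, against 25.4% of all genes lower and 20.6% higher. DESeq2 called 7 lower and 0 higher, against 17.4% and 12.6% of the genes to which it gave an adjusted p. Npm1, a nucleolar chaperone gene, had 147 and 137 CPM in cucurbitacin I, against 241 and 220 CPM in DMSO (log2 fold change -0.70, adjusted p = 0.00843). Fbl, which encodes the rRNA methyltransferase fibrillarin, had 9.10 and 11.5 CPM in cucurbitacin I, against 22.6 and 19.9 CPM in DMSO (-1.05, adjusted p = 0.0112). The share of nucleolar targets lower, 7 of 30, was near the 19.5% of all genes. All 7 calls were lost without DMSO replicate 1, that of Npm1 at an adjusted p of 0.0541 and that of Fbl at 0.0687. Without cucurbitacin I replicate 2, 2 were lower and 2 higher, without cucurbitacin I replicate 1 or DMSO replicate 2, 4 were lower, and with library totals alone 17 were lower.

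Of 32 targets in metabolism, translation and the cell cycle, 7 were called lower and 2 higher and 23 missed the threshold, with a median log2 fold change of -0.25. The lower share is near the 19.5% of all genes, and 13.9% of all genes were higher. Shmt1, an enzyme gene of one-carbon metabolism, had 10.1 and 8.86 CPM in cucurbitacin I, against 37.1 and 33.9 CPM in DMSO (log2 fold change -1.90, edgeR adjusted p = 0.00206). Cdc25a, the phosphatase gene that promotes entry into S phase, had 28.6 and 29.5 CPM in cucurbitacin I, against 61.7 and 60.0 CPM in DMSO (-1.07, adjusted p = 0.00274). Both stood well below DMSO in each library. Shmt1 shares exon bases with Smcr8 on the opposite strand. With library totals alone 15 were lower and 1 higher, and without cucurbitacin I replicate 1, 11 were lower.

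Of the nucleolar targets with a promoter sequence, 7 of 25 held CACGTG, with a median log2 fold change of -0.20, against -0.27 for the 18 without it. Of the metabolism and growth targets, 10 of 26 held it, with a median of -0.13, against -0.22 for the 16 without it. Of the nucleolar targets, 0 of the 7 with CACGTG were called lower, against 4 of the 18 without it, and 0 were higher in both. Of the metabolism and growth targets, 1 of 10 was lower and 1 higher with it, against 3 and 0 of 16 without it. The median log2 fold change was 0.01 over the 1261 tested genes whose promoter held CACGTG and -0.01 over the 9814 without it. Genes whose promoter held an E2F-type sequence were called lower in 29.5% of 359 cases, against 19.8% of 10716 genes without one. They were called higher in 10.3% of cases, against 15.1% of the genes without one. For the STAT-type sequence the lower shares were 19.96% with it and 20.08% without it, and the higher shares 12.75% and 15.12%. For CACGTG they were 17.6% and 20.4% lower, and 14.2% and 15.0% higher. For CACGCG they were 16.7% and 20.9% lower, and 15.9% and 14.7% higher. These shares are descriptions, since promoters with one sequence often share others.

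Genes that MYC is known to repress went both ways, with 2 of 10 called higher, 3 called lower and 5 not called, against 13.9% higher and 19.5% lower over all genes. Cdkn1a, the p21 gene, which p53 also drives, was higher (708 and 459 CPM in cucurbitacin I, against 95.1 and 71.9 CPM in DMSO, log2 fold change 2.80). Pdgfrb, a receptor gene of mural cells, was lower (11.1 and 9.13 CPM in cucurbitacin I, against 121 and 135 CPM in DMSO, log2 fold change -3.66). Cebpa, a differentiation factor gene of liver, fat and myeloid cells, was lower too (0.369 and 0.271 CPM in cucurbitacin I, against 2.64 and 2.13 CPM in DMSO). The list therefore did not move in 1 direction, and its median log2 fold change was -0.10.

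Of 7 listed targets of the MLXIP and MLXIPL branch, 6 were tested, 5 were lower and 0 higher, against 19.5% of all genes lower, with 6 lower and 0 higher at an unadjusted p below 0.05 and 5 and 0 with DESeq2. The median log2 fold change was -0.50, also with Pklr at its bound. Arrdc4, an arrestin-domain gene of glucose uptake control, had 41.2 and 41.8 CPM in cucurbitacin I, against 57.2 and 59.7 CPM in DMSO (log2 fold change -0.49, edgeR adjusted p = 0.0143). Txnip, the best known gene of the branch, chosen for mention after its values were seen, had 380 and 367 CPM in cucurbitacin I, against 554 and 512 CPM in DMSO (-0.51, adjusted p = 0.0231). Both genes were lower in each cucurbitacin I library, but Arrdc4 lost its call without DMSO replicate 1 or 2 (adjusted p = 0.0711 and 0.0737), and Txnip without any 1 of the 4 libraries (0.0638 to 0.13). Pklr, the liver pyruvate kinase gene, had 0 counts in cucurbitacin I and 61 in DMSO, at least 16.6-fold lower with the cucurbitacin I group set to 3 counts, which covers counting error only. On the opposite strand, Pklr shares exon bases with Hcn3, and Txnip with Gm15441. Without DMSO replicate 1 or DMSO replicate 2, 1 of the 6 was called lower, without cucurbitacin I replicate 1, 3 were, and without cucurbitacin I replicate 2, 2 were.

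**Figure D4:**
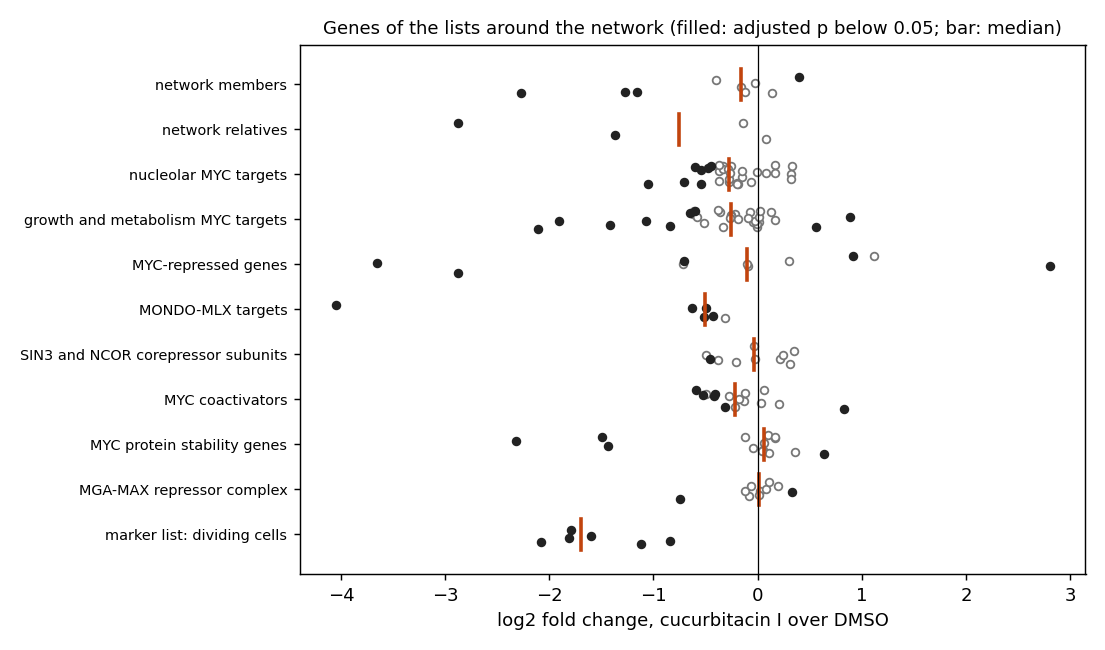
log2 fold change of cucurbitacin I over DMSO for every tested gene of each list (points; filled at an adjusted p below 0.05), with the list median as a bar; Pklr is drawn at its bound. Medians of the target lists lie between -0.50 and -0.10, and that of the 6 dividing-cell markers lies at -1.69.

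Of 10 SIN3 and NCOR corepressor subunit genes, 1 was lower and 0 higher, with 2 lower and 1 higher at an unadjusted p below 0.05 and 1 and 0 with DESeq2. Of 15 coactivator genes, 5 were lower and 1 higher. Over all genes 19.5% were lower and 13.9% higher. Ruvbl2, a chromatin ATPase gene, had 67.8 and 77.8 CPM in cucurbitacin I, against 118 and 101 CPM in DMSO, and shares exon bases with Gys1 on the opposite strand. Smarcb1, a SWI/SNF subunit gene, had 84.3 and 84.7 CPM in cucurbitacin I, against 131 and 112 CPM in DMSO. Paf1, an elongation complex gene, was higher, with 164 and 158 CPM in cucurbitacin I, against 91.6 and 90.2 CPM in DMSO (0.82, adjusted p = 0.00406). The 5 lower coactivators lost their calls without DMSO replicate 1, and without any 1 of the other 3 libraries 2 were lower. Without DMSO replicate 1 the adjusted p was 0.105 for Ruvbl2 and 0.11 for Smarcb1, and Ruvbl2 also missed the threshold without cucurbitacin I replicate 1 (0.0529).

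Of 14 genes acting on the stability of MYC proteins, 3 were lower and 1 was higher, and the lower share is near the 19.5% of all genes. The lower ones were Skp2, a ubiquitin ligase gene of S phase (21.8 and 21.1 CPM in cucurbitacin I, against 61.1 and 59.5 CPM in DMSO), Aurka (17.6 and 20.1 CPM in cucurbitacin I, against 51.4 and 50.8 CPM in DMSO) and Plk1 (9.79 and 17.1 CPM in cucurbitacin I, against 65.7 and 68.3 CPM in DMSO). Aurka and Plk1 encode mitotic kinases, and the Aurora A kinase is known to stabilise MYCN protein. Usp28, a deubiquitinase gene, was higher (157 and 157 CPM in cucurbitacin I, against 91.6 and 110 CPM in DMSO, log2 fold change 0.64, adjusted p = 0.0143). Without DMSO replicate 1 its log2 fold change was 0.52 and its call was lost (adjusted p = 0.0777). Of 10 genes of the MGA and MAX repressor complex, 1 was lower and 1 higher, against 19.5% of all genes lower and 13.9% higher. Tfdp1, the dimer partner gene of E2F factors, had 25.7 and 24.9 CPM in cucurbitacin I, against 44.6 and 40.2 CPM in DMSO (-0.74, adjusted p = 0.00821). E2f6, the repressor of the E2F family, had 84.7 and 93.9 CPM in cucurbitacin I, against 71.0 and 70.9 CPM in DMSO (0.33, adjusted p = 0.0469). E2f6 did not pass with DESeq2 (0.0777), with library totals alone (0.521) or without cucurbitacin I replicate 2 (0.144), DMSO replicate 1 (0.187) or DMSO replicate 2 (0.169), and Tfdp1 did not without DMSO replicate 1 (0.0579).

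**Figure D5:**
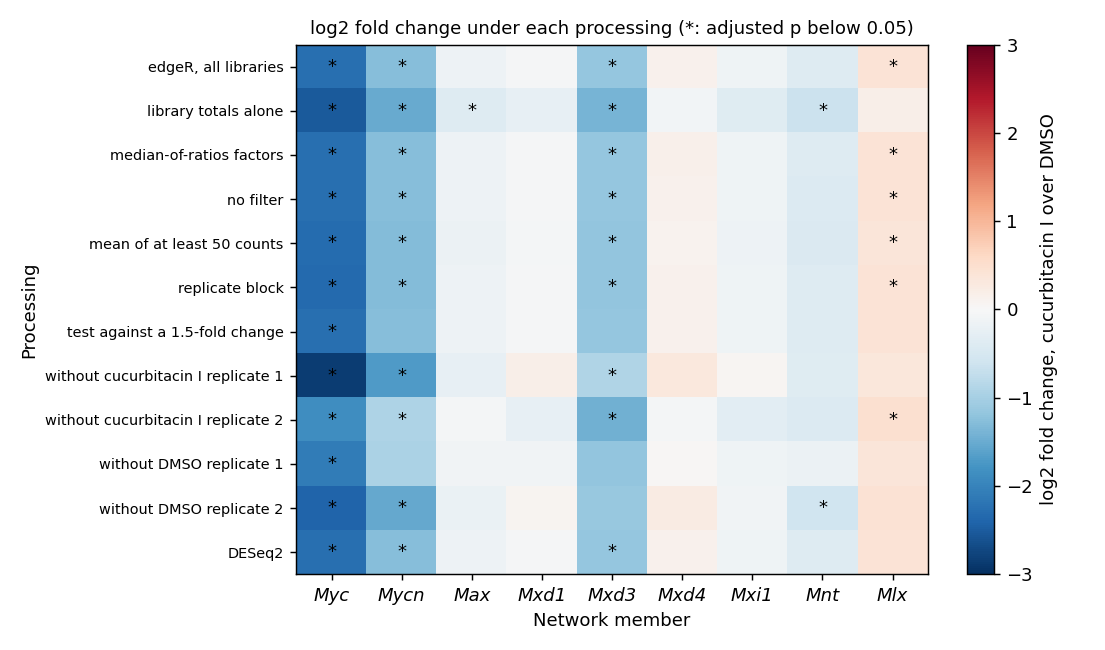
log2 fold change of each member (columns, colour) under each processing (rows), with a star where the adjusted p was below 0.05. Myc has a star in every row, Mycn in all but 2, Mxd3 in all but 3, and Mlx in 6 of 12.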

How the data were processed

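The authors deposited 1 table of raw read counts per gene for the 4 libraries. The submitters' processing notes name STAR 2.3.0e, HTSeq 0.6.0 and build mm10; for the annotation release and the strand setting, nothing is stated in the labels or headers. The log2 fold change and adjusted p-value deposited by the authors carry DESeq2's column names, per the file headers. Another 4 columns of normalized values were not used. Of 43374 rows, 4195 repeated a gene and were left out. Groups came from the titles.

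edgeR 4.0.16 (R 4.3.3) was run on the counts (filterByExpr with a minimum count of 10, TMM, glmQLFit, 2-sided glmQLFTest, Benjamini-Hochberg over 16722 genes), after a test on simulated data. The standard error is the log2 fold change over the square root of F. Replicates differed beyond counting noise (chi-square per degree of freedom 36.5 in cucurbitacin I and 26.1 in DMSO). Standard errors of log2 fold changes had a median of 0.17. Exon lengths and overlaps came from GENCODE M21, promoters from RefSeq.

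The members and lists were chosen with earlier results of these data known. Named genes are all members, relatives and Pvt1, up to 2 called genes of each list in its more frequent direction and 1 in the other by adjusted p, and the 3 genes of at least 5 CPM nearest in profile to Myc and to Mycn (log2 of CPM plus 0.1). Plk1 and Txnip fall outside this rule, their values having been seen first. Some genes that the rule names are not reported here. The alternatives were DESeq2 1.42.0, median-of-ratios factors, library totals, other filters, a replicate block, calls at 0.01, a 1.5-fold threshold test and each library left out. With a library left out, the remaining one of its group is taken to vary as the other group does.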

Additional observations from a re-analysis of the deposited data

How the results depend on the processing

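Myc and Mycl kept their direction and their call under each of 11 alternatives, with log2 fold changes of -2.85 to -1.85 and -3.12 to -2.60. Mycn and Mxd3 kept their direction, but missed the threshold against a 1.5-fold change (adjusted p = 0.121 and 0.0699) and without the DMSO libraries named above.

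The counts of calls, given as higher and lower, moved by over 1.5 times as follows. At an adjusted p below 0.01 there were 492 and 1262 over all genes, 0 and 1 members, 1 lower relative, 1 lower nucleolar target, 1 and 3 growth and metabolism targets, 1 higher repressed gene and 1 or fewer in the other lists' moved directions (0 lower MLX-branch targets, SIN3 subunits and coactivators, 0 higher stability and MGA complex genes). Against a 1.5-fold change there were 375 and 1666 over all genes, 0 and 1 members, 1 lower relative, 0 lower nucleolar targets, 0 and 3 growth targets, 1 higher repressed gene, 1 lower MLX-branch target, 0 lower SIN3 subunits and coactivators, 0 higher stability genes, and 0 and 0 MGA complex genes. With library totals alone there were 1059 higher over all genes, 0 and 5 members, 17 lower nucleolar targets, 1 and 15 growth targets, 4 lower SIN3 subunits, 8 lower coactivators and 0 higher MGA complex genes. DESeq2 gave 0 higher members, 1 lower relative and 0 higher MGA complex genes, a mean of at least 50 counts gave 1 lower relative and 0 higher MGA complex genes, and no filter gave 0 higher MGA complex genes.

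Same-numbered libraries deviated together with a correlation of 0.242 across 16722 genes. The labels name no shared culture, batch or day, and there are only 2 pairs, so the numbers were not used as a pairing. The replicate block gave 1 higher and 11 lower nucleolar targets and moved no other count by over 1.5 times. 

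With 1 library left out, counts ran from 389 to 2109 higher and 1461 to 3001 lower over all genes, 0 to 1 and 1 to 3 for members, 1 lower relative throughout, 0 to 2 and 0 to 4 for nucleolar targets, 1 to 2 and 5 to 11 for growth targets, 1 to 3 and 3 to 4 for repressed genes, 1 to 3 lower for MLX-branch targets, 0 to 1 lower for SIN3 subunits, 0 to 2 lower for coactivators, 0 to 1 higher for stability genes, and 0 to 1 in both directions for MGA complex genes. Of the uncalled members, Max and Mnt kept their sign under every alternative, whereas Mxd1, Mxd4 and Mxi1 changed sign. Mxd1 ran from -0.25 to 0.18, Mxd4 from -0.063 to 0.33 and Mxi1 from -0.32 to 0.059. With library totals alone Mxd4 was -0.091, and the relative Mga was -0.16. The causes were not tested.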
